A study of Mus musculus with 12 samples.

Results

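The genes described here encode the peptides that neurons of the hypothalamus release as hormones and transmitters: *Oxt*, *Avp*, *Hcrt*, *Pmch*, *Agrp*, *Npy*, *Crh*, *Gal*, *Cartpt* and *Sst*. They were chosen by symbol, taking the array's transcript cluster (a set of probes that together measure 1 gene) annotated with that symbol alone. Of the 10 listed genes, 9 had such a cluster and *Agrp* was not analysed here. All 9 lay above a log2 value of 5 in every one of the 12 arrays and so belonged to the 27966 of 41345 clusters that were tested, which represent 16425 genes with a symbol of their own. Each of the 9 genes was measured by 1 cluster.

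The study asked how a shortage of the RNA-binding protein Stau2, which carries transcripts into dendrites, alters gene expression in the adult mouse brain before and after learning. RNA from brain lysate of 12 male mice was hybridised to Affymetrix Mouse Gene 2.0 ST arrays, 1 mouse per array and 3 mice per group. The WT mice were C57Bl/6J and the Stau2GT mice carried the gene trap B6.129P2-Stau2Gt(RRG396)Byg, which lowers *Stau2* without deleting it. The labels give an age of 16 to 20 weeks. Naive WT and naive Stau2GT mice had no behavioural tests. Trained WT and trained Stau2GT mice went through 4 weeks of open field, object recognition, object location and Barnes maze tests that began at 4 months of age. The labels do not say which parts of the brain entered the lysate or whether WT and Stau2GT mice were littermates. The naive mice were run on 1 array set and the trained mice on another, so training and array set cannot be told apart, while each genotype comparison stays within 1 set.

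Hypothalamic neuropeptides are made as large precursors, cut by prohormone convertases inside dense core vesicles and released from axon terminals, and in some neurons from dendrites. Oxytocin and vasopressin neurons of the paraventricular and supraoptic nuclei send axons to the posterior pituitary, orexin and melanin-concentrating hormone neurons of the lateral hypothalamus project through the brain, and arcuate neurons that make NPY or CART peptides govern feeding. *Npy*, *Sst*, *Crh* and *Cartpt* are also transcribed in cortical, hippocampal or other neurons outside the hypothalamus, so a value from brain lysate does not belong to a single nucleus. In such bulk RNA, fewer cells of a type and less RNA per cell cannot be told apart.

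All 14 of 14 hypothalamic transcription factors on the marker list (*Sim1*, *Otp*, *Nkx2-1* and others) passed the same minimum, as did 27966 of all 41345 clusters. Their means ran from 5.12 (*Nkx2-1*) to 6.21 (*Hmx2*), around the array medians of 5.68 to 5.79. Passing therefore does not show that hypothalamic RNA was detected. The labels were checked on *Stau2*, which was 8.22, 8.32 and 8.21 in naive WT, 8.08, 8.06 and 8.07 in naive Stau2GT, 8.27, 8.16 and 8.30 in trained WT and 8.02, 7.95 and 8.07 in trained Stau2GT mice. Both gene trap groups lay below their WT group without overlap, by differences of -0.18 (naive) and -0.23 (trained) on the log2 scale, although neither passed limma's adjusted test (adjusted p = 0.954 and 0.330). Of all tested clusters, 12% in naive and 11.2% in trained mice had genotype groups without overlap, in either direction. Pearson correlations between arrays of 1 group over all tested clusters ran from 0.978 to 0.988, lowest among the trained Stau2GT mice. The array of trained Stau2GT mouse 2 had the highest median (5.79, others 5.68 to 5.75) and the narrowest interquartile range (2.73, others 2.79 to 2.90).

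The DNA just upstream of a start site of each gene was read from RefSeq promoter windows of the mouse build GRCm38.p6, which covered 8 of the 10 listed genes. For *Oxt*, *Cartpt* and *Sst* that site lies inside the full span of the gene and not at its outer end. Those spans are chr2:130574519-130577054, chr13:99898483-99910179 and chr16:23889573-23891342. Shown are the windows of 250 bases for *Oxt* and *Avp*, neighbouring genes on opposite strands with 3565 bases between their spans. Also shown are those for *Hcrt* and *Cartpt*, the members whose groups separated in the comparisons given further on. The window of *Sst* is added because it shares a motif with that of *Cartpt*. The windows are chr2:130575919-130576168 (plus strand) for *Oxt*, chr2:130582589-130582838 (minus) for *Avp*, chr11:100762932-100763181 (minus) for *Hcrt*, chr13:99900684-99900933 (minus) for *Cartpt* and chr16:23890845-23891094 (minus) for *Sst*. Capitals mark matches on either strand to 3 motifs: TGACC (or GGTCA), the core of the elements bound by nuclear receptors, the E-box CACGTG and the cAMP response element TGACGTCA.
Oxt: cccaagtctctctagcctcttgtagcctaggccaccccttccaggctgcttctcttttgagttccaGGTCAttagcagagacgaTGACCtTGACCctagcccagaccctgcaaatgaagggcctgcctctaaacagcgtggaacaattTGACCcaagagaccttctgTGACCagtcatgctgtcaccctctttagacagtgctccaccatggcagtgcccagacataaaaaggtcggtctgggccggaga
Avp: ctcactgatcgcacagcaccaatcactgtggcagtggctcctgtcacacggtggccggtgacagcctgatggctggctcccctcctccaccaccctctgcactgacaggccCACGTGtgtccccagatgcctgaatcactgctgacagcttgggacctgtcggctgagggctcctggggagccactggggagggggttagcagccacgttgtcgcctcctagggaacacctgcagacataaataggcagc
Hcrt: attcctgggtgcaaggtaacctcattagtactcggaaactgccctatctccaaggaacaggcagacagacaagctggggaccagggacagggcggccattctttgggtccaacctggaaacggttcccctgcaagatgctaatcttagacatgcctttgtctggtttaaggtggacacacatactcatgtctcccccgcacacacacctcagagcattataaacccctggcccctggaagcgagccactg
Cartpt: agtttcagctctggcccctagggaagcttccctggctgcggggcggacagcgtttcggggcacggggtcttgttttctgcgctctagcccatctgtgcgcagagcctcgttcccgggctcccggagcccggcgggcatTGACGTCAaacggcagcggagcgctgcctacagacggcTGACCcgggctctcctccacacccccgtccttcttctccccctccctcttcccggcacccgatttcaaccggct
Sst: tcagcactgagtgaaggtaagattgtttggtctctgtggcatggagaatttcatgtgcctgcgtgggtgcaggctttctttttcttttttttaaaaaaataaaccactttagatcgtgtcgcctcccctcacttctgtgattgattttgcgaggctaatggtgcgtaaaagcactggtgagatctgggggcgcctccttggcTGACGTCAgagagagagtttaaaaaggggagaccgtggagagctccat

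The *Oxt* window held 5 matches to TGACC or GGTCA, a number reached by 14 of 32851 windows of the same length (0.0426%), whereas at least 1 such match occurred in 35.2% of windows. *Cartpt* and *Sst* each held 1 cAMP response element, present in 1.55% of all windows, and *Avp* held 1 E-box, present in 6.02%. *Cartpt* and *Gal* each had 1 TGACC or GGTCA match. *Hcrt*, *Pmch* and *Npy* had no match to these 3 motifs. No matches overlapped. A match describes the letters and is not a measurement of binding.

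None of the 9 neuropeptide genes differed between groups past an adjusted p of 0.05 in any of the 5 limma comparisons made over all clusters. The comparisons were Stau2GT against WT in trained mice and in naive mice, trained against naive in WT and in Stau2GT mice, and the interaction, which asks whether the genotype difference itself depends on training. Each value below is a log2 signal, in which 1 unit is a doubling. The bounds that follow are the outermost limits of the 95% intervals of the 4 group comparisons, each taken separately and not as a joint interval. *Sst* was held between 0.849-fold and 1.13-fold, *Npy* between 0.810-fold and 1.19-fold, *Gal* between 0.789-fold and 1.26-fold, and *Hcrt* between 0.874-fold and 1.34-fold. The widest bounds were those of *Oxt*, from 0.605-fold to 1.77-fold. The mean signals of *Gal* (5.29) and *Crh* (5.61) lay below every array median (5.68 to 5.79), and that of *Hcrt* (5.935) little above. RMA shrinks fold changes near background, so for these genes the bounds hold for the signal and may understate changes of the transcript.

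**Figure D1:**
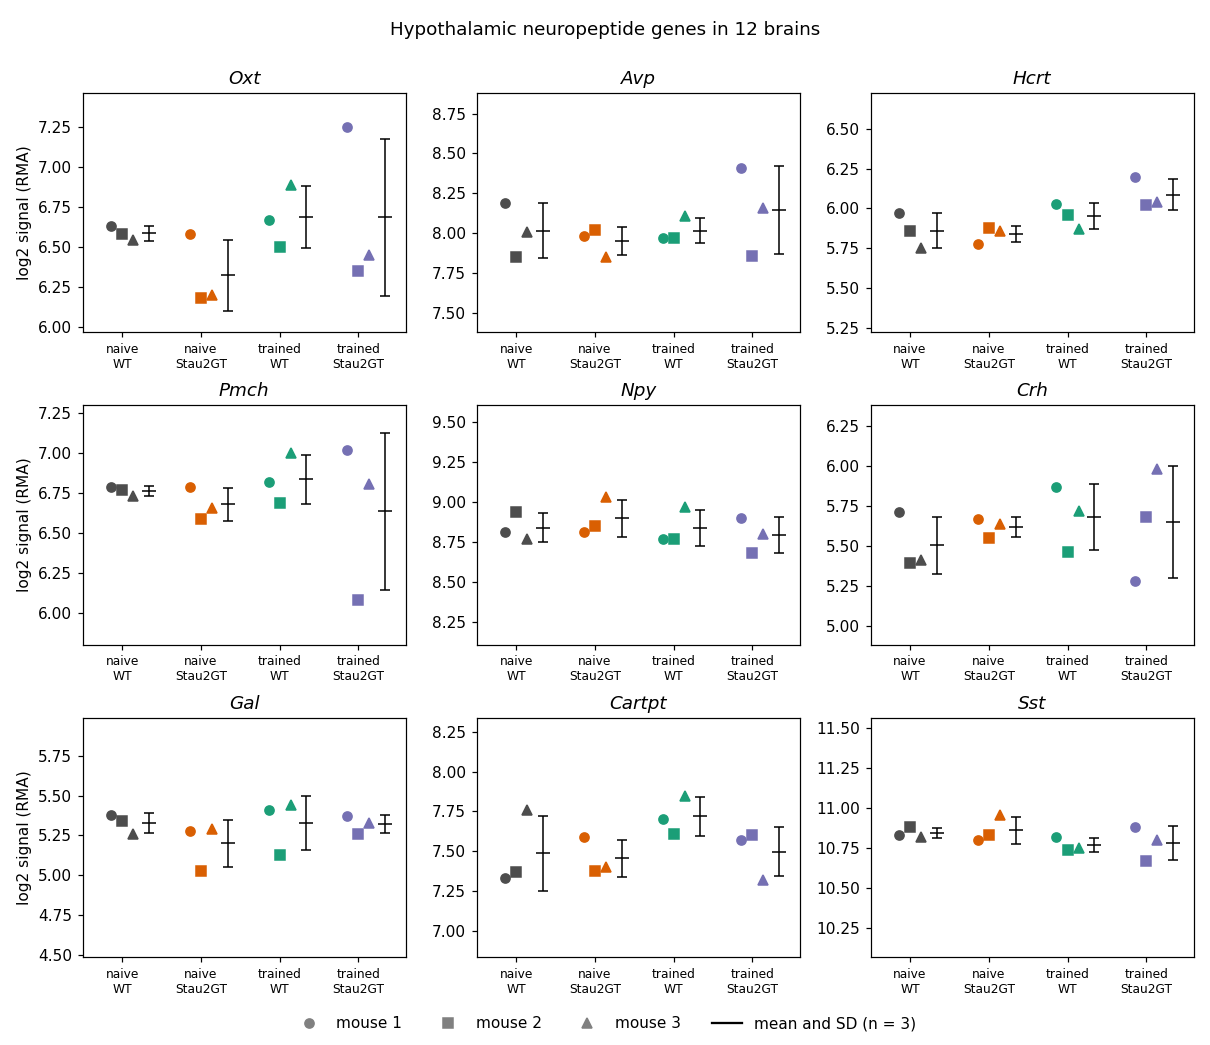
Log2 signal of each of the 9 neuropeptide genes in the 12 mice, 1 panel per gene with its own vertical axis. Points are single mice, horizontal bars are group means of 3 mice and vertical bars are the SD. In *Oxt* and *Pmch* the trained Stau2GT mice spread farther (SD 0.49 in each) than in *Sst* (SD 0.11).

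The posterior pituitary hormones come first. *Oxt*, which encodes oxytocin, the peptide of parturition, milk ejection and social behaviour, was 6.63, 6.58 and 6.54 in naive WT mice and 6.58, 6.18 and 6.20 in naive Stau2GT mice. In trained mice it was 6.67, 6.50 and 6.89 (WT) and 7.25, 6.35 and 6.45 (Stau2GT). The value of 7.25 in trained Stau2GT mouse 1 was the highest of the 12, and the other 2 mice of that group lay below every trained WT mouse. The naive Stau2GT mean was the lowest (6.32 ± 0.23, SD, n = 3) and the trained WT (6.69 ± 0.20), trained Stau2GT (6.68 ± 0.49) and naive WT (6.58 ± 0.05) means lay above it.

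For *Oxt* the genotype difference was -0.26 ± 0.21 (SE) in naive mice (exact permutation p = 0.3, limma adjusted p = 0.998) and -0.00 in trained mice with an interval of -0.46 to 0.46 (adjusted p = 0.999). The trained difference was set by single mice. It became -0.29 without trained Stau2GT mouse 1, and 0.16, 0.11 and 0.10 without trained Stau2GT mouse 2, trained Stau2GT mouse 3 and trained WT mouse 3. Trained against naive Stau2GT mice gave 0.36 (interval -0.10 to 0.82, adjusted p = 0.293), 0.08 without trained Stau2GT mouse 1. The interaction of 0.26 ± 0.30 (SE) had an adjusted p of 0.870.

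*Avp*, which encodes vasopressin, the antidiuretic and pressor peptide, was 8.19, 7.85 and 8.01 in naive WT, 7.98, 8.02 and 7.85 in naive Stau2GT, 7.97, 7.97 and 8.11 in trained WT and 8.41, 7.86 and 8.16 in trained Stau2GT mice. As for *Oxt*, trained Stau2GT mouse 1 had the highest value of all and mouse 2 the lowest of its group. All groups overlapped. The genotype difference was -0.07 in naive mice and 0.13 in trained mice (limma adjusted p = 0.998 and 0.834), the trained difference moving to -0.01 without trained Stau2GT mouse 1. Training gave 0.00 in WT and 0.19 in Stau2GT mice (adjusted p = 1 and 0.372), the latter 0.06 without the same mouse.

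Of the lateral hypothalamic peptides, *Hcrt* encodes the precursor of the orexins, which stabilise wakefulness. It was 5.97, 5.86 and 5.75 in naive WT, 5.78, 5.88 and 5.86 in naive Stau2GT, 6.03, 5.96 and 5.87 in trained WT and 6.20, 6.02 and 6.04 in trained Stau2GT mice. The 3 trained Stau2GT mice lay above the 3 naive Stau2GT mice, with a difference of 0.25 ± 0.08 (SE), or 1.19-fold (95% interval 1.05 to 1.34). By limma the unadjusted p was 0.00996 and the adjusted p 0.0848, short of the threshold. The exact permutation test gave 0.1, the smallest p that 3 against 3 mice allow. Of all tested clusters, 15.2% lay higher without overlap in this comparison and 26.2% had an unadjusted p below 0.05, so 1 of 9 members in each count did not exceed the background share. In WT mice the difference was 0.09 (adjusted p = 0.614), and the 2 training differences were not distinguished by the interaction (0.15 ± 0.11, adjusted p = 0.785). The genotype differences were -0.02 in naive and 0.13 in trained mice (adjusted p = 0.998 and 0.683).

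*Pmch* encodes the precursor of melanin-concentrating hormone, which promotes feeding and REM sleep. Its values were 6.79, 6.77 and 6.73 in naive WT, 6.79, 6.59 and 6.66 in naive Stau2GT, 6.82, 6.69 and 7.0 in trained WT and 7.02, 6.08 and 6.81 in trained Stau2GT mice. The highest and the lowest of the 12 values both came from the trained Stau2GT group. The trained genotype difference was -0.20 (interval -0.62 to 0.22, limma adjusted p = 0.813) and turned to 0.08 without trained Stau2GT mouse 2. Likewise, trained against naive Stau2GT mice gave -0.04 with that mouse and 0.24 without it. The naive genotype difference was -0.08 and the training difference in WT mice 0.07.

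**Figure D2:**
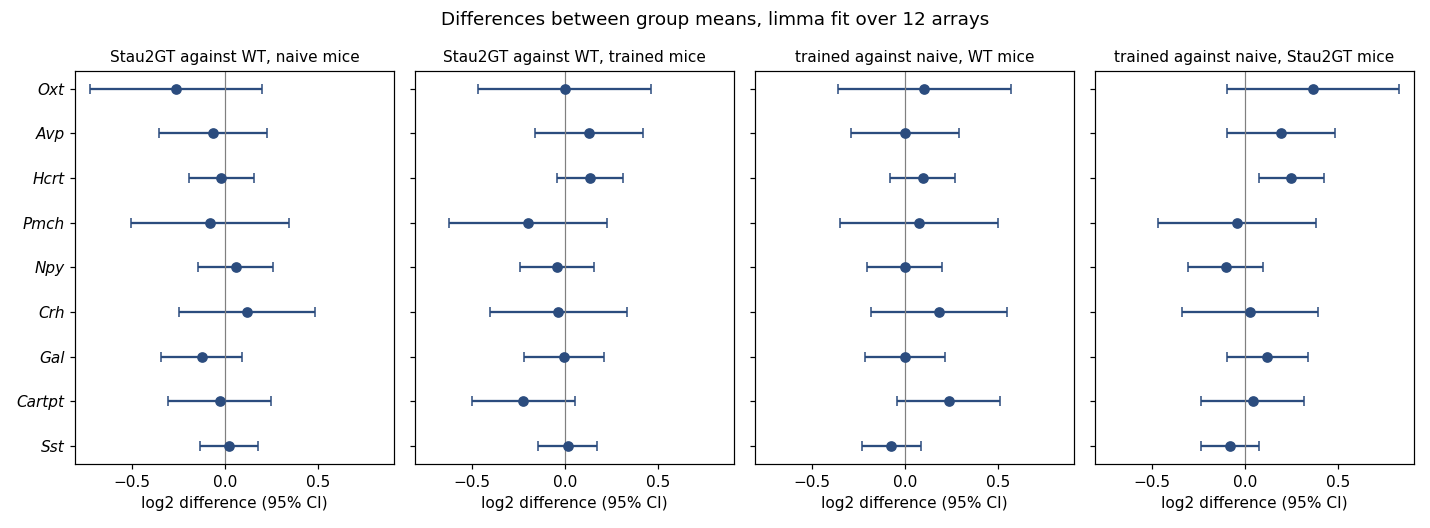
Log2 difference of each neuropeptide gene in the 4 group comparisons, with points for the limma estimate and bars for its 95% interval. The interval of *Hcrt* in trained against naive Stau2GT mice (0.07 to 0.42) lies above 0, and the other 35 intervals include 0.

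Among peptides of arcuate and other feeding neurons, *Npy* encodes neuropeptide Y, an appetite-stimulating peptide that cortical and hippocampal interneurons also make. It was 8.81, 8.94 and 8.77 in naive WT, 8.81, 8.85 and 9.03 in naive Stau2GT, 8.77, 8.77 and 8.97 in trained WT and 8.90, 8.68 and 8.80 in trained Stau2GT mice. All groups overlapped, and the 4 differences ran from -0.10 (trained against naive, Stau2GT) to 0.06 (Stau2GT against WT, naive).

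*Cartpt*, the CART prepropeptide gene of appetite-suppressing arcuate neurons, was 7.33, 7.37 and 7.76 in naive WT and 7.59, 7.38 and 7.40 in naive Stau2GT mice. It was 7.70, 7.61 and 7.85 in trained WT and 7.57, 7.60 and 7.32 in trained Stau2GT mice. Thus the trained Stau2GT mice lay below the trained WT mice, by a gap of 0.01 between the nearest pair. The difference was -0.22 ± 0.13 (SE, interval -0.50 to 0.05), with an unadjusted limma p of 0.104, an adjusted p of 0.663 and an exact permutation p of 0.1. It was -0.135 without trained Stau2GT mouse 3 and -0.278 without trained WT mouse 2. In the trained genotype comparison, 5.02% of clusters were lower without overlap. Training gave 0.23 ± 0.13 in WT mice (adjusted p = 0.399), with naive WT mouse 3 at 7.76 inside the trained range, and 0.04 in Stau2GT mice. Without that naive mouse the WT difference was 0.37, and without naive WT mouse 1 it was 0.155. The interaction was -0.19 (adjusted p = 0.831).

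*Gal* encodes galanin, an inhibitory co-transmitter of many hypothalamic neurons. It lay nearest to the minimum of 5 used for testing, at 5.38, 5.34 and 5.26 in naive WT, 5.28, 5.03 and 5.29 in naive Stau2GT, 5.41, 5.13 and 5.44 in trained WT and 5.37, 5.26 and 5.33 in trained Stau2GT mice. The groups overlapped in every comparison. The naive genotype difference was -0.13 (exact permutation p = 0.3, limma adjusted p = 0.998) and the trained one -0.01. The naive difference was -0.0417 without naive Stau2GT mouse 2, the lowest of the 12 at 5.03.

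The releasing and release-inhibiting peptides followed. *Crh*, which encodes corticotropin-releasing hormone, the hypothalamic trigger of the stress axis, was 5.71, 5.39 and 5.41 in naive WT, 5.67, 5.55 and 5.64 in naive Stau2GT, 5.87, 5.46 and 5.72 in trained WT and 5.28, 5.68 and 5.98 in trained Stau2GT mice. The trained Stau2GT group held both the lowest and the highest value of the 12. Here trained Stau2GT mouse 1 was the lowest, the reverse of its position in *Oxt* and *Avp*. In the 4 group comparisons no difference of *Crh* was above 0.18, and its intervals ran from -0.40 to 0.55. Its interaction was -0.15 (interval -0.67 to 0.36).

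*Sst*, which encodes somatostatin, the inhibitor of growth hormone release and a marker of a class of cortical interneurons, was 10.83, 10.88 and 10.82 in naive WT, 10.80, 10.83 and 10.96 in naive Stau2GT, 10.82, 10.74 and 10.75 in trained WT and 10.88, 10.67 and 10.80 in trained Stau2GT mice. All groups overlapped. The genotype differences were 0.02 in naive and 0.01 in trained mice, and the training differences were -0.07 in WT and -0.08 in Stau2GT mice, with limma adjusted p-values of 0.501 to 0.998.

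When the 4 groups were ordered by mean for each gene, 27 neighbouring pairs resulted, and in 26 of them the mice overlapped. The exception was *Cartpt* in trained WT and trained Stau2GT mice, and over all clusters 8.36% of such pairs did not overlap. Counted over the members, 0 of 9 passed limma's adjusted threshold in trained Stau2GT against WT mice, where 0.179% of clusters passed, and 0 of 9 in naive mice, where 0.0858% passed. For training, 0 of 9 passed in WT mice (1.4% of clusters) and 0 of 9 in Stau2GT mice (6.11%), and 0 of 9 passed in the interaction (0.0215%). At an unadjusted p below 0.05 the counts were 0, 0, 0, 1 and 0 in the same order, beside 8.92%, 5%, 16%, 26.2% and 7.7% of clusters. The methods' t-test gave 0, 0, 0 and 1 at that level in the 4 group comparisons, beside 6%, 6.72%, 15.1% and 18.5% of clusters. After Benjamini-Hochberg adjustment it called 0 members in each, and 1, 0, 12 and 0 of the 27966 clusters. Groups did not overlap for 1 member in trained Stau2GT against WT (11.2% of clusters in either direction), 0 in naive Stau2GT against WT (12%), 0 in trained against naive WT (22.9%) and 1 in trained against naive Stau2GT mice (28.1%). The median difference of the members was -0.01, -0.03, 0.07, 0.04 and -0.01, against 0.00, 0, 0.00, 0.02 and 0.00 over all tested clusters.

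The members varied unequally from mouse to mouse. The residual SD within groups was 0.289 for *Oxt*, 0.264 for *Pmch* and 0.225 for *Crh*, above those of 89.4%, 87.2% and 82.2% of tested clusters. *Avp* (0.173) and *Cartpt* (0.164) came next, at 69.7% and 66.7%. *Gal* (0.120), *Npy* (0.109), *Hcrt* (0.0881) and *Sst* (0.0731) varied less than most clusters, at 43.9%, 36.2%, 22.0% and 12.7%. The range over all 12 mice was 1.07 for *Oxt*, 0.94 for *Pmch* and 0.29 for *Sst*.

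A shared order appeared within groups, chosen for description after the values were seen. Among trained Stau2GT mice, mouse 1 was the highest and mouse 2 the lowest for 7 of 9 members (*Oxt*, *Avp*, *Hcrt*, *Pmch*, *Npy*, *Gal* and *Sst*), an order that 18.1% of all tested clusters had. After quantile normalization of the deposited values, also added after the data were seen, it held for 7 of 9 members and 16.2% of clusters. Averaged over the 9 members, mouse 1 deviated from its group mean by 0.14, mouse 2 by -0.15 and mouse 3 by 0.01. Mouse 2 is also the mouse whose array had the highest median, and the part of the array in this order was not tested. Among trained WT mice, mouse 3 was the highest and mouse 2 the lowest for 4 of 9 members (*Oxt*, *Pmch*, *Gal* and *Cartpt*), against 14.8% of clusters, with mean deviations of 0.03, -0.11 and 0.09. In the naive groups the mean deviations lay between -0.06 and 0.05.

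**Figure D3:**
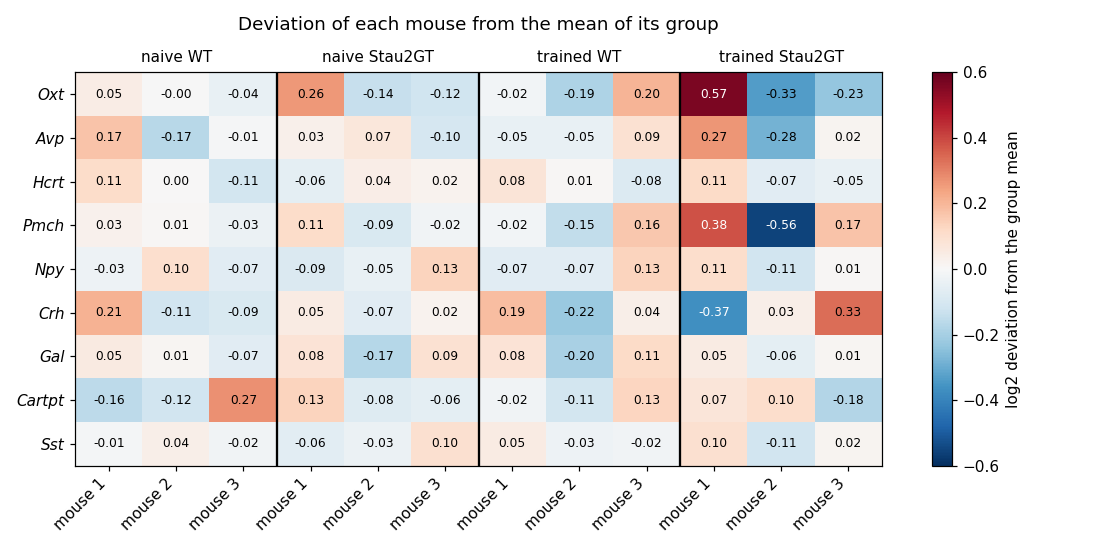
Deviation of each neuropeptide gene from its group mean (log2) in the 12 mice, with genes in rows, mice in columns and vertical lines between groups. In the trained Stau2GT columns, *Oxt* (0.57) and *Pmch* (0.38) are high in mouse 1, *Pmch* is low in mouse 2 (-0.56) and *Crh* is low in mouse 1 (-0.37).

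Over the 12 mice, after each group mean was subtracted, 25 of the 36 member pairs correlated above 0 and the median Pearson r was 0.299. Exact permutation within groups (two-sided, 1296 arrangements) gave a raw p below 0.05 for r in 4 pairs and an adjusted p below 0.05 in none. *Oxt* and *Avp*, the neighbouring genes, had r = 0.724 (exact p = 0.0571, adjusted p = 0.411) and Spearman's rho = 0.609 (exact p = 0.0926, adjusted p = 0.524). Their r was 0.215 over the naive and 0.887 over the trained mice. It was 0.310 without the 2 mice farthest from the median of *Oxt*, a step that narrows the range and can by itself lower r. Without trained Stau2GT mouse 1 alone it was 0.549, and without trained Stau2GT mouse 2 alone 0.647. *Avp* and *Pmch* (r = 0.791, exact p = 0.0386, adjusted p = 0.361, rho = 0.637, exact p = 0.0787, adjusted p = 0.524) behaved likewise, with 0.0672 in naive mice, 0.962 in trained mice and 0.305 without 2 mice. *Npy* and *Sst*, which interneurons can make together, had r = 0.707 (exact p = 0.0355, adjusted p = 0.361) and rho = 0.733 (exact p = 0.0463, adjusted p = 0.524). This r was 0.958 over naive mice, 0.527 over trained mice and 0.798 without 2 mice. The pair with the lowest exact p was *Pmch* and *Gal* (r = 0.498, exact p = 0.0100, adjusted p = 0.361, rho = 0.545, exact p = 0.0548, adjusted p = 0.524), with 0.770 over naive mice, 0.539 over trained mice and 0.710 without 2 mice. *Oxt* and *Gal* had r = 0.516 (exact p = 0.0401, adjusted p = 0.361) and rho = 0.587 (exact p = 0.0247, adjusted p = 0.524), with 0.534, 0.547 and 0.600 in the same order. All members of a mouse share 1 array.

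The same deviations were averaged over other gene lists. For trained Stau2GT mice 1, 2 and 3, the other hypothalamic neuropeptides averaged 0.08, -0.05 and -0.03, the receptors of the members 0.02, -0.04 and 0.01, and genes of peptide processing and dense core vesicles 0.08, -0.06 and -0.01. Mouse 1 was the highest and mouse 2 the lowest in 6 of 14 other lists, these 3 and the markers of cortex and hippocampus (0.15, -0.09 and -0.06), striatum (0.06, -0.04 and -0.02) and choroid plexus (0.14, -0.14 and 0.00). Mouse 1 was also the highest for thalamus (0.15, -0.07 and -0.09), hypothalamic transcription factors (0.03, 0.01 and -0.05) and inhibitory interneurons (0.03, -0.01 and -0.03), where mouse 3 was the lowest. It was the lowest in 4 lists, monoamine neurons of midbrain and hindbrain (-0.26, 0.21 and 0.05), pituitary (-0.27, 0.04 and 0.23), cerebellum (-0.07, 0.04 and 0.02) and olfactory bulb (-0.04, 0.05 and -0.01). The single red cell gene tested gave 0.04, -0.10 and 0.05. Markers of several brain regions thus moved with the member order or against it, and their part in it was not tested.

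**Figure D4:**
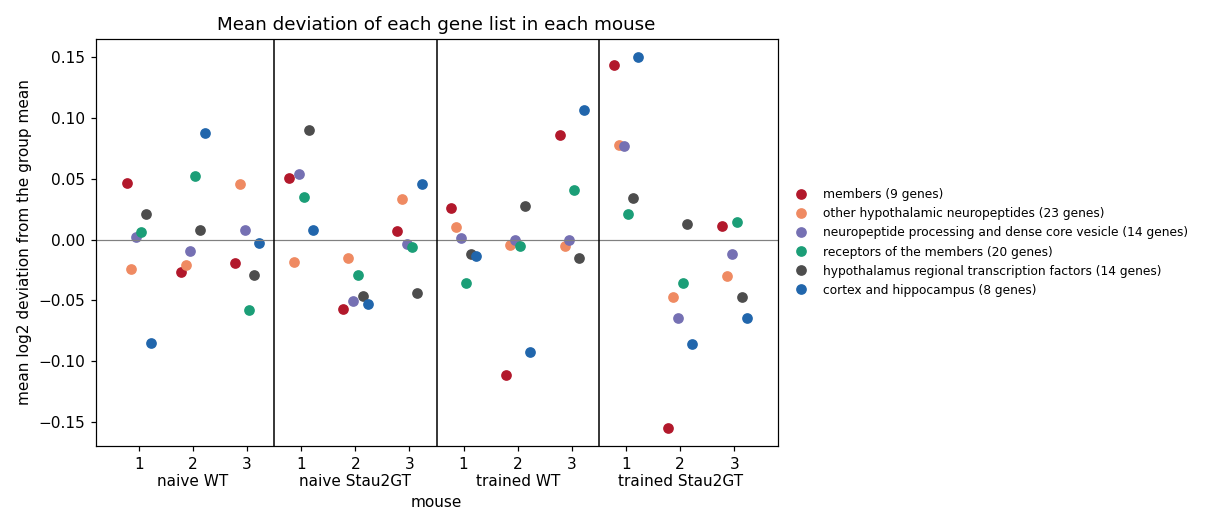
Mean deviation from the group mean (log2) for the neuropeptide genes and some of the other gene lists in each of the 12 mice. Drawn are other hypothalamic neuropeptides, peptide processing, receptors of the members, hypothalamic transcription factors, and cortex and hippocampus. The remaining lists are not drawn, including those in which trained Stau2GT mouse 1 was the lowest. In the trained Stau2GT mice the neuropeptide genes lie at 0.14, -0.15 and 0.01, and the hypothalamic transcription factors at 0.03, 0.01 and -0.05.

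The genes whose within-group pattern was most like each member were read as a description from 14519 named genes over 12 arrays. The r values are the highest of so many genes, after each group mean was subtracted, and a relation was not tested. Without that subtraction, r of the same pairs ran from 0.00302 (*Hcrt* and *Snrnp40*) to 0.920 (*Crh* and *Atf7*). For the 3 genes nearest to *Oxt*, in the order below, it was 0.876, 0.0562 and 0.351. Nearest to *Oxt* were *Hdhd5* (r = 0.974), *Cnih2* (0.967) and *Arhgef25* (0.953), and nearest to *Avp* *Ngdn* (0.922), *a* (0.921) and *Sdhaf2* (0.921). *Hcrt* was followed most closely by *Trp53rka* (0.929), *Snrnp40* (0.913) and *Vmn2r58* (0.899), and *Pmch* by *Pop1* (0.981), *Arhgap6* (0.961) and *Usp11* (0.957). For *Npy* they were *Eif2b3* (0.986), *Chml* (0.954) and *Rsph3b* (0.939), for *Crh* *Zmym2* (0.955), *Atf7* (0.951) and *Ppm1b* (0.948), and for *Gal* *Nav1* (0.941), *Crebbp* (0.915) and *Klhl41* (0.905). *Cartpt* had *Dennd11* (0.959), *Spocd1* (0.957) and *Plch1* (0.950), and *Sst* had *Arhgap1* (0.972), *Ubl7* (0.964) and *Mzt2* (0.961). No member was among the 3 nearest genes of another member.

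Of 25 other hypothalamic neuropeptide genes, 23 were tested, and 1 passed in 1 comparison, trained against naive Stau2GT mice, where 6.11% of all clusters passed. At an unadjusted limma p below 0.05 there were 1, 4, 2, 8 and 4 of the 23 in the order of comparisons above, against 8.92%, 5%, 16%, 26.2% and 7.7% of all clusters. *Nms*, which encodes neuromedin S, a peptide of suprachiasmatic neurons, was 4.84, 5.03 and 4.95 in naive WT, 4.86, 4.37 and 4.68 in naive Stau2GT, 5.01, 5.13 and 4.71 in trained WT and 5.33, 5.22 and 5.10 in trained Stau2GT mice. It rose by 0.58 in trained against naive Stau2GT mice (limma adjusted p = 0.0357), from values below the minimum of 5 in all 3 naive Stau2GT mice. The call was lost without naive Stau2GT mouse 2 (adjusted p = 0.0924) or mouse 3 (0.0844) and without trained Stau2GT mouse 1 (0.0752) or mouse 2 (0.0955). It was also lost under quantile normalization, median centring, array weights, a replicate block, a fit to the 6 arrays compared and the methods' t-test (adjusted p up to 0.213). Its interaction of 0.57 did not pass (adjusted p = 0.562). *Trh*, the gene of thyrotropin-releasing hormone, had a naive genotype difference of -0.39 (limma adjusted p = 0.798) and a training difference in WT mice of -0.32 (adjusted p = 0.176). The medians over the 23 genes were 0.05 (trained genotype), -0.01 (naive genotype), 0.01 (training, WT) and 0.06 (training, Stau2GT).

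*Pomc*, the precursor gene of appetite-suppressing melanocortins in arcuate neurons and of corticotropin in the pituitary, was 5.69, 5.04 and 7.25 in naive WT, 7.56, 6.82 and 7.33 in naive Stau2GT, 4.97, 5.5 and 5.44 in trained WT and 5.36, 5.46 and 5.93 in trained Stau2GT mice. Its naive genotype difference was 1.24 (limma adjusted p = 0.954) and its training difference in Stau2GT mice -1.65 (adjusted p = 0.0548). The training difference passed without naive WT mouse 2 (0.0375) or mouse 3 (0.0132), with a log2 minimum of 6 in place of 5, with median centring, with an intensity trend, with a replicate block and in a fit to the 6 arrays compared. The naive genotype difference was 1.87 without naive WT mouse 3 (adjusted p = 0.0533) and 0.767 without naive WT mouse 2. Training in WT mice gave -0.69 (adjusted p = 0.495), -0.0617 without naive WT mouse 3 and -1.17 without naive WT mouse 2. Pituitary hormone genes spread widely over the same samples. *Gh* ran from 8.76 to 12.93 in naive and from 5.42 to 7.94 in trained mice, and *Prl* from 5.73 to 11.01 and from 4.24 to 5.30. Of the 6 pituitary genes tested of 10 listed, 1 (*Gh*) was lower past the adjusted threshold in each training comparison (adjusted p = 0.0360 in WT and 0.0210 in Stau2GT mice), and all 6 differences were below 0 in both. The WT call was lost without naive WT mouse 1 or 3, naive Stau2GT mouse 3 or any 1 trained WT mouse (adjusted p = 0.0547 to 0.105), and the Stau2GT call without naive Stau2GT mouse 1 or 3 or trained Stau2GT mouse 2 (0.0575 to 0.0706). The part of pituitary RNA in the *Pomc* values was not tested. Among the members, 1 of 9 lay above the group mean in naive WT mouse 3, which had the highest *Gh* of its group (12.91). In naive Stau2GT mouse 1, which had the highest *Gh* of all mice (12.93), it was 6 of 9. The share of all clusters above the group mean in these mice was not counted, and a relation of the members to *Gh* was not tested.

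Receptors and binding proteins of the member peptides gave no call. Of 22 listed, 20 were tested, and 0 passed limma's adjusted threshold in any of the 5 comparisons, with 3, 0, 1, 5 and 0 at an unadjusted p below 0.05, set against the same shares of all clusters (8.92%, 5%, 16%, 26.2% and 7.7%). In trained Stau2GT against WT mice the lowest p-values were those of *Sstr2*, a somatostatin receptor (-0.25, adjusted p = 0.450), and *Npy2r*, a presynaptic NPY receptor (-0.34, adjusted p = 0.513). In naive mice they were those of *Npy1r* (0.18) and *Sstr5* (-0.18). *Npy1r*, the NPY receptor of feeding circuits, had a training difference of -0.37 in Stau2GT mice (adjusted p = 0.0542), and passed the threshold without trained Stau2GT mouse 3 (adjusted p = 0.02), with a log2 minimum of 6 in place of 5, with median centring, with an intensity trend and with a replicate block. In WT mice *Avpr1b*, the vasopressin receptor of pituitary corticotrophs, had a training difference of 0.40 (adjusted p = 0.277). It exceeded the minimum of 5 only in trained mice (5.08 and 5.31 in WT, 5.12 in Stau2GT). All naive values lay below it (4.36 to 4.93), so *Avpr1b* entered the test only through the training state where it was high.

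Genes of peptide processing and secretion also gave no call, with 14 of 15 tested, 0 past the adjusted threshold and 0, 0, 1, 2 and 0 at an unadjusted limma p below 0.05, for which the same 5 shares of all clusters apply. The lowest unadjusted p belonged to *Scg5*, the chaperone of prohormone convertase PC2, in trained against naive WT mice (-0.23, adjusted p = 0.140). *Pcsk1*, the convertase PC1/3, had -0.21 in trained Stau2GT against WT mice (adjusted p = 0.676). *Scg3*, a granin of secretory granules, had -0.19 in trained against naive Stau2GT mice (adjusted p = 0.123). The median differences of the list lay between -0.025 and 0.0267 in all 5 comparisons. The hypothalamic transcription factors (14 tested) had 0 calls and 2, 0, 0, 2 and 0 at an unadjusted p below 0.05, to be set against those shares, with medians of 0.07, -0.06, 0.08, 0.10 and 0.12.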

How the data were processed

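RNA from brain lysate of 12 male mice was measured on Affymetrix Mouse Gene 2.0 ST arrays. The authors normalized the arrays by RMA in the oligo package and deposited log2 values. The sources used here state neither the oligo version nor whether RMA was run once over both array sets. Genes were named through the platform annotation of the deposited clusters, where 23521 of 41345 clusters had 1 symbol, 1820 several and 16004 none. Clusters exceeding 5 on the log2 scale on 3 or more arrays entered the test in limma 3.58.1 (R 4.3.3) on group means of all 12 arrays, with Benjamini-Hochberg adjustment over 27966 clusters and a threshold of 0.05. Intervals are 95% moderated limma intervals. Single members were also compared by a two-sided exact permutation test. The number of arrays limits the precision. The p-values set a difference against the spread between mice, which includes that between arrays, as each mouse had 1 array. RMA shrinks fold changes near background. Likeness was ranked over tested clusters of 1 symbol, leaving out predicted genes, microRNAs and small nucleolar RNAs, and the 3 highest are named. Of the other lists, genes past the threshold or with the 2 lowest p-values in a comparison could be named. The members and lists were chosen with earlier results of these data known. The fit was tested on simulated data. Alternatives were another minimum or none, quantile normalization, median centring, array weights, an intensity trend, a replicate block, the 6 arrays compared, the mean over clusters, the methods' t-test and each array left out.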

Additional observations from a re-analysis of the deposited data

How the results depend on the processing

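No member passed the adjusted threshold in any of the 5 comparisons under any alternative, including each of the 12 arrays left out in turn. Apart from leaving out arrays, only quantile normalization, median centring and array weights could move a difference. The other alternatives leave the group means of a member as they were and could not change a sign. Of 422 alternative values for 45 member differences, 6 changed sign. Under quantile normalization these were *Npy* in trained against naive WT mice (0.0276), *Crh* in trained against naive Stau2GT mice (-0.0481) and the interaction of *Sst* (0.000556). With arrays centred on their medians they were *Sst* in trained Stau2GT against WT mice (-0.0233) and, in trained against naive Stau2GT mice, *Crh* (-0.0467) and *Cartpt* (-0.0333). The adjusted p of *Hcrt* in trained against naive Stau2GT mice ran from 0.0680 (minimum of 6) to 0.212 (without naive Stau2GT mouse 1), and that of *Cartpt* in trained Stau2GT against WT mice from 0.518 (without trained Stau2GT mouse 1) to 0.866 (without trained WT mouse 3). A minimum of 6 left no value for *Crh* and *Gal*.

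With single arrays left out, 37 of 540 differences changed sign, none larger than 0.235. Apart from the interaction, a difference could not move when the array left out belonged to neither group compared. The count of 37 of 540 therefore understates how often a sign turned where it could. *Avp* and *Gal* in trained against naive WT mice started at 0 and were not counted as changed. They ranged over -0.0833 to 0.0867 and -0.0567 to 0.0983. In trained Stau2GT against WT mice the ranges were -0.287 to 0.163 (*Oxt*), -0.392 to 0.0783 (*Pmch*), -0.00667 to 0.268 (*Avp*), -0.203 to 0.147 (*Crh*), -0.105 to 0.05 (*Gal*), -0.0967 to 0.0233 (*Npy*) and -0.035 to 0.07 (*Sst*). In naive Stau2GT against WT mice they were -0.15 to 0.02 (*Avp*), -0.108 to 0.107 (*Cartpt*), -0.075 to 0.035 (*Hcrt*), -0.01 to 0.107 (*Npy*) and -0.0283 to 0.0517 (*Sst*). Trained against naive WT mice gave -0.07 to 0.0467 (*Npy*) and -0.00833 to 0.147 (*Pmch*), and trained against naive Stau2GT mice -0.0117 to 0.128 (*Cartpt*), -0.14 to 0.21 (*Crh*) and -0.235 to 0.235 (*Pmch*). The interaction ranged over -0.32 to 0.03 (*Crh*), -0.0233 to 0.427 (*Oxt*), -0.308 to 0.162 (*Pmch*) and -0.055 to 0.05 (*Sst*). With 3 mice per group, differences near 0 had no settled sign, and some larger ones also turned. The *Oxt* interaction of 0.26 became -0.0233 without trained Stau2GT mouse 1. The trained genotype difference of *Pmch*, -0.20, became 0.0783 without trained Stau2GT mouse 2. The cause of these changes was not tested.

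The labels number the mice 1 to 3 in each group, without saying that a number pairs them. Same-numbered mice deviated together with correlations of -0.0272 to 0.0686, and 6 of 12 mice correlated best with their own number, so the numbers were not taken as pairs. With the replicate number as a block, 0 members passed in each comparison, *Hcrt* in trained against naive Stau2GT mice keeping 0.25 with an adjusted p of 0.0893. Among other genes, the call of *Nms* in that comparison was lost under the block (adjusted p = 0.0503), quantile normalization (0.0690), median centring (just above 0.05), array weights (0.0642), the 6 arrays compared (0.0902) and the methods' t-test (0.213), while *Npy1r* and *Pomc* passed under the block (0.0483 and 0.0459), the minimum of 6 (0.0424 and 0.0451), median centring (0.0356 and 0.0430) and the intensity trend (0.0413 and 0.0426), and *Pomc* in the 6 arrays compared (0.0318). The call of *Gh* was lost without the minimum (0.0518) and with the 6 arrays compared (0.0938) in WT mice, and with the methods' t-test in WT (0.240) and Stau2GT mice (0.165).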
